A study of Mus musculus with 10 samples.

Results

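Mitochondrial respiratory chain and ATP synthase genes were read in the hippocampus of Dp5/Dp1 mice, a model of Down syndrome. Members were all genes with a probe set of their own whose symbol starts with Ndufa, Ndufb, Ndufc, Ndufs, Ndufv, Uqcr or Atp5, or with Cox and a digit from 4 to 8, together with Sdha, Sdhb, Sdhc, Sdhd and Cyc1, and without the Ndufaf assembly factors. The rule used no measured difference between the groups. It gave 83 of the 19938 genes measured, 36 of complex I, 4 of complex II, 9 of complex III, 17 of complex IV and 17 of ATP synthase, which is also called complex V. Cox7c and Ndufb4 share their probe sets with other genes and were not read. Atp5o, the only member inside a duplicated interval, was read apart from the other 82, which are not duplicated. Among these, Ndufa1, Ndufb11 and Cox7b lie on the X chromosome, and all mice were male.

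Whole hippocampi (right and left) of 5 male Dp5/Dp1 mice and 5 male littermate controls, all 16 weeks old, were each profiled on 1 Affymetrix GeneChip Mouse Gene 1.0 ST array. Dp5/Dp1 mice are compound heterozygotes of the Dp5Yah and Dp1Rhr lines, and carry in 3 copies the genes of a pair of mouse chromosome 16 (Mmu16) segments homologous to human chromosome 21 (Hsa21). The controls carry neither duplication, are marked as re-analysed and were shared with mice of either line alone, not used here. Background is C57BL/6N by label and C57BL/6J in the study's methods, and the mutant titles name Dp5Yah with Dp5/Dp1 in brackets. Values are RMA log2 levels, each difference is Dp5/Dp1 minus control on the log2 scale, and levels are not compared between genes because each probe set has its own brightness. A gene is "called" at an adjusted p under 0.05 (limma, Benjamini-Hochberg over all 19938 genes). The number of arrays limits the precision.

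The respiratory chain passes electrons from NADH through complex I, or from succinate through complex II, to ubiquinone, then through complex III and cytochrome c to oxygen at complex IV. Complexes I, III and IV pump protons out of the mitochondrial matrix, and ATP synthase lets them flow back through its membrane ring to make ATP. Neurons draw most of their ATP from this pathway. Complex II is encoded in the nucleus alone, whereas the other complexes join nuclear subunits, which are the members here, with subunits encoded by mitochondrial DNA.

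Markers of hippocampal neurons had a mean level between 10.77 and 10.87 on every array. Markers of choroid plexus, a tissue next to the hippocampus, had a mean level (11 of 13 measured) of 6.88 to 8.72 in controls and 6.96 to 8.37 in Dp5/Dp1. Of these, 0 of 11 were higher in Dp5/Dp1 (median difference -0.35). Markers of the medial habenula (10 of 10 measured) had a mean level of 7.03 to 7.49 in controls and 7.06 to 8.33 in Dp5/Dp1. Of these, 9 of 10 were higher (median difference 0.30). None of either list was called. Choroid plexus markers were high on control replicates 1, 4 and 5 and on Dp5/Dp1 replicates 3 and 5, and habenula markers on Dp5/Dp1 replicates 2 and 5. In whole tissue, fewer cells of a type and less RNA per cell cannot be told apart.

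The promoters of 3 members are shown first, that of Atp5o because it was the only member called, that of Ndufs6 because it had the lowest p among the 82 others, and 1 of 2 of Atp5j because this Hsa21 homologue stayed in 2 copies and starts opposite Gabpa, which encodes a subunit of the ETS factor GABP. Each window runs from 250 bases before to 50 bases after a RefSeq start (GRCm38.p6) and is written 5′ to 3′ on the gene's strand, here the minus strand. Capitals mark matches on either strand to CCGGAAG (ETS, the GABP motif), GCATGCGC (NRF1) or AAGATGGC (YY1).
Atp5o, chr16:91931581-91931880: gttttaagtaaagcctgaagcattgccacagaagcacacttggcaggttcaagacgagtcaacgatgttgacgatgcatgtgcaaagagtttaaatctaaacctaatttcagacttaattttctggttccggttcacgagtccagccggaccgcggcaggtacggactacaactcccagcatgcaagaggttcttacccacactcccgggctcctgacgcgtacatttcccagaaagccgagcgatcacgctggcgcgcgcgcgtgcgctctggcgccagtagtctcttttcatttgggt
Ndufs6, chr13:73328433-73328732: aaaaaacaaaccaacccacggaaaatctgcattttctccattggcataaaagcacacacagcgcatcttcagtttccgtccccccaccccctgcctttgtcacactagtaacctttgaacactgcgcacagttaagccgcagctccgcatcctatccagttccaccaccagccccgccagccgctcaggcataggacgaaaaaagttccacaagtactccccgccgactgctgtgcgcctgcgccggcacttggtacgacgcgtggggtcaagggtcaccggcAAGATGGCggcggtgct
Atp5j, chr16:84834927-84835226: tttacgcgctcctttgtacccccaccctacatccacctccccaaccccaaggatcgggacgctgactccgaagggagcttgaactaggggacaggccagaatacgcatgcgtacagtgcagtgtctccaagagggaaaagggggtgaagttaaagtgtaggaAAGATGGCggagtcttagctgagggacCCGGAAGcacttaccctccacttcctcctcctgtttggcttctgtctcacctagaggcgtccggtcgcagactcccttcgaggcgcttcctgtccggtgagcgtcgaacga

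The Atp5o window held none of these letters, the Ndufs6 window held 1 YY1 match, and the Atp5j window shown held an ETS and a YY1 match. The other Atp5j window, not shown, held none. RefSeq windows were matched for 67 of the 83 members, 72 windows in all. The ETS letters stood in 23.6% of the members' windows and in 11.6% of the 21263 windows of protein-coding genes, the NRF1 letters in 13.9% and 3.52%, and the YY1 letters in 13.9% and 3.05%. These matches are a description of letters, not of binding.

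Atp5o was overexpressed. It encodes the oligomycin sensitivity-conferring protein, which ties the catalytic head of ATP synthase to the peripheral stalk, and lies at chromosome 16, 91925223 to 91931630 (GRCm38), inside the Dp5Yah interval taken as Cyyr1 to Clic6 inclusive (85452858 to 92541241). Its level on control replicates 1 to 5 was 10.70, 10.55, 10.75, 10.68 and 10.68, and on Dp5/Dp1 replicates 1 to 5 it was 11.10, 11.04, 11.25, 11.12 and 11.23. The groups did not overlap, with a gap of 0.29 between the lowest Dp5/Dp1 array and the highest control. The difference was 0.47 ± 0.05 (SE, n = 5 per group, limma adjusted p = 0.00107), and the exact two-sided permutation test gave p = 0.00794, the smallest that 5 against 5 arrays allow. On a linear scale this is a ratio of 1.39, with a 95% interval from 1.29 to 1.495, beside the 1.5 of 3 copies to 2. Subtracting the mean of the other 16 ATP synthase members on the same array left a difference of 0.43, with no overlap.

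**Figure D1:**
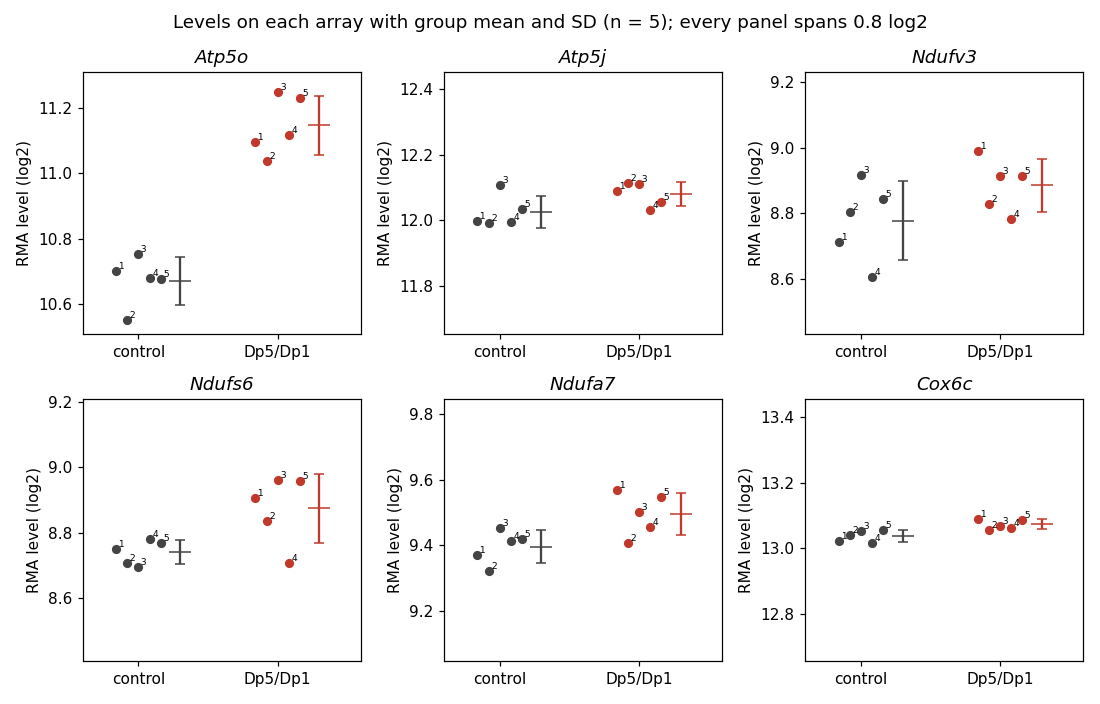
RMA log2 level of 6 members on each array, with the replicate number beside each point and the group mean and SD (n = 5) at the side; each panel spans the same 0.8 log2. Atp5o separates the groups by 0.29, whereas Ndufs6 and Ndufa7 overlap through Dp5/Dp1 replicates 4 and 2.

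Of the 82 members that are not duplicated, 0 were called by limma, against 0.206% of all genes in either direction. The lowest adjusted p was 0.799. At an unadjusted p under 0.05 there were 2 higher (2.44%) and 0 lower, against 3.39% and 2.67% of all genes. This share was below the background in the fit of all 10 arrays but not in every other fit. By FCROS, the rank method of the study, 3 were higher (3.66%, Ndufs6, Ndufa6 and Atp5e) and 0 lower, against 2.84% and 2.21%. The groups did not overlap for 1 member, Cox6c (1.22%, higher), and for 0 in the lower direction, against 0.762% and 0.321%.

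The differences of these members were small and mostly of 1 sign. Their median was 0.04, from -0.13 (Cox8b) to 0.16 (Ndufa6), and 68 of 82 (82.9%) had a higher mean in Dp5/Dp1. Over all genes the median was 0.002 and 51.5% were higher, and over the 8676 genes of the members' brightness (the 10th to 90th percentile of their levels, 7.88 to 12.18) the median was -0.005 and 47.1% were higher. The 95% interval lay within a ratio of 1.2 in either direction for 75 of the 82 members. A similar share of all genes (18392 of 19938) and of genes of the same brightness (7830 of 8676) met this limit. The count at an unadjusted p under 0.05, always in the higher direction, moved with single arrays. Without Dp5/Dp1 replicate 2 it was 14 of 82 (17.1%, against 4.10% of all genes higher in that fit). It was 7 without Dp5/Dp1 replicate 4 (8.54%, against 4.22%), 7 without control replicate 3 (8.54%, against 4.55%) and 1 without Dp5/Dp1 replicate 1 (1.22%, against 2.27%). The median fell to 0.02 without Dp5/Dp1 replicate 5.

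**Figure D2:**
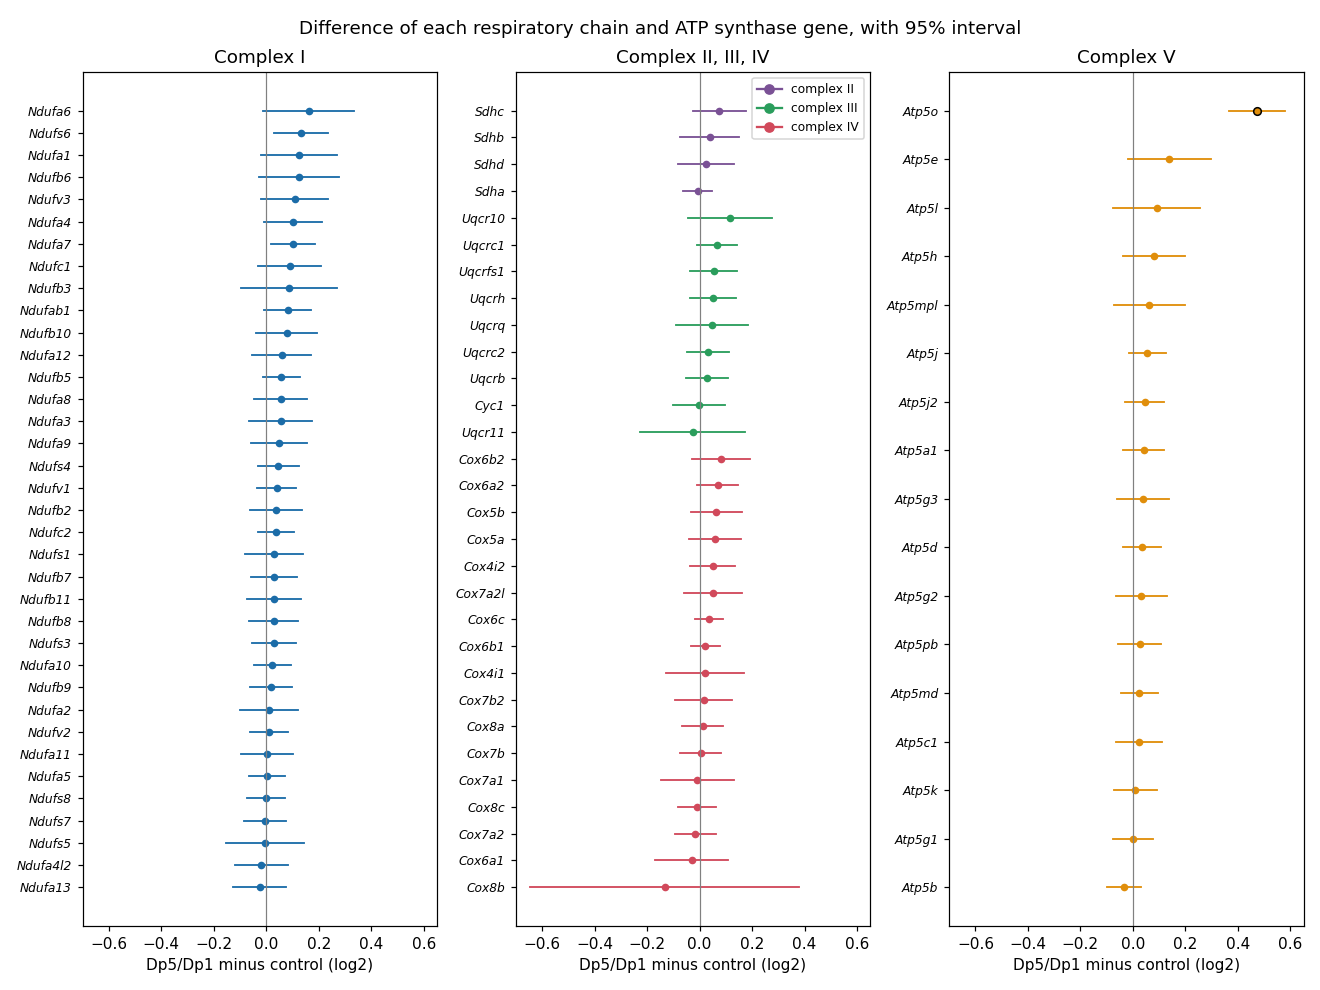
Dp5/Dp1 minus control difference (log2, horizontal axis) of each of the 83 members, ordered by size within its complex; bars are 95% intervals from limma (n = 5 per group). Atp5o, ringed in black, stands at 0.47, and most other members lie between 0 and 0.16 with intervals that reach 0.

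Read by array, the members were not shifted on every Dp5/Dp1 mouse. As the median deviation of the 82 members from their control mean, Dp5/Dp1 replicates 1, 3 and 5 stood at 0.06, 0.08 and 0.09, whereas replicates 2 and 4 stood at -0.02 and -0.01. Control replicates 1 to 5 stood at 0.02, -0.03, 0.03, -0.002 and -0.007. Thus 3 of 5 Dp5/Dp1 arrays lay above every control and 2 lay within the control range. The SD of these medians was 0.05 in Dp5/Dp1 and 0.02 in controls. The median over all genes of the same brightness stayed between -0.02 and 0.03 on every array.

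Counted by gene, 65, 28, 70, 34 and 69 of the 82 members exceeded their control mean on Dp5/Dp1 replicates 1 to 5, and 48, 26, 51, 40 and 36 on control replicates 1 to 5. The highest of a member's 10 levels fell on Dp5/Dp1 replicate 5 for 23 members, on replicate 3 for 17 and on replicate 1 for 15, but on replicate 2 for 4 and on replicate 4 for 1. The lowest fell on a control for 63 members, 23 of them on control replicate 2. All 5 Dp5/Dp1 arrays exceeded the control mean for 4 of the 82 members, Atp5j, Ndufv3, Ndufa7 and Cox6c. The share of all genes that did so was not counted, so this count is a description alone. Markers of other cell types also varied among these arrays. On Dp5/Dp1 replicates 1 to 5 the mean level of choroid plexus markers was 6.96, 7.26, 8.12, 6.96 and 8.37, and that of habenula markers 7.09, 8.33, 7.23, 7.06 and 7.79. Astrocyte markers (6 of 6 measured, 3 higher in Dp5/Dp1, none called) had a mean level of 10.96, 10.89, 10.98, 10.89 and 10.97 there and of 10.89 to 11.02 in controls. Microglia markers (6 of 6 measured, 2 higher, none called) had one of 8.71, 8.60, 8.66, 8.51 and 8.74, and of 8.58 to 8.68 in controls. Both lists, like the members, were higher on Dp5/Dp1 replicates 1, 3 and 5 than on replicates 2 and 4. Between the groups, however, their median differences were -0.03 (astrocytes) and -0.01 (microglia), opposite in sign to that of the members. Among controls both were lowest on replicate 2. Other lists were not ordered so. Oligodendrocyte markers (5 of 6 measured) stood at 11.84, 11.70, 11.62, 11.60 and 11.73 on Dp5/Dp1 replicates 1 to 5. Endothelium markers (5 of 5) stood at 9.07, 9.05, 9.16, 9.12 and 9.06, and parvalbumin interneuron markers (6 of 6) at 9.68, 9.61, 9.62, 9.66 and 9.55. Among controls these were lowest on replicates 3, 5 and 1. The part of the astrocyte and microglia markers in the members' pattern was not tested. With the choroid plexus and habenula marker means as covariates the members' median difference was 0.05. Without Dp5/Dp1 replicates 2 and 5 it was 0.04. Astrocyte and microglia markers were not used as covariates.

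**Figure D3:**
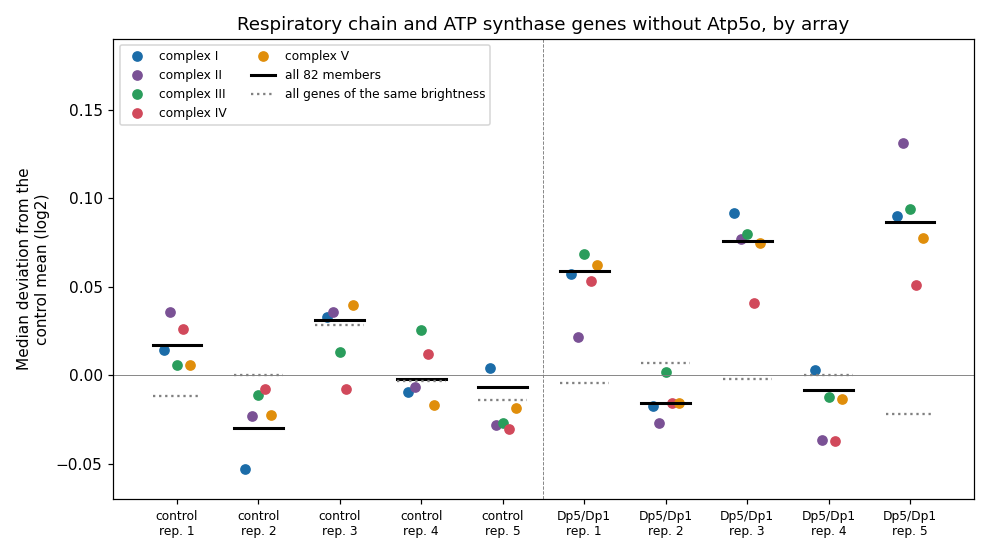
Median deviation from the control mean (log2) on each array, for each complex (coloured points), for all 82 members without Atp5o (black lines) and for all genes of the same brightness (dotted lines). The black lines of Dp5/Dp1 replicates 1, 3 and 5 stand at 0.06 to 0.09, and those of replicates 2 and 4 among the controls.

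Complex I holds 36 members, of which 31 had a higher mean (median 0.04, from -0.03 to 0.16, and 0.02 without Dp5/Dp1 replicate 5). Genes were assigned to a complex by symbol, so Ndufa4 and Ndufa4l2 are counted here and not in complex IV. Ndufs6, an accessory subunit that binds zinc and is needed late in the building of the complex, measured 8.75, 8.71, 8.70, 8.78 and 8.77 in controls and 8.91, 8.84, 8.96, 8.71 and 8.96 in Dp5/Dp1. All Dp5/Dp1 arrays but replicate 4 were above every control. The difference was 0.13 ± 0.05 (SE, limma adjusted p = 0.799). Ndufa7, an accessory subunit of the arm that takes up NADH, measured 9.37, 9.32, 9.45, 9.41 and 9.42 in controls and 9.57, 9.41, 9.50, 9.46 and 9.55 in Dp5/Dp1. Its replicate 2 lay among the controls, and the difference was 0.10 ± 0.04 (SE, limma adjusted p = 0.806).

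Ndufa4, first described in complex I and later assigned to complex IV, had a difference of 0.10 ± 0.05 (SE). Ndufa6, a small subunit that holds an acyl carrier protein, had the largest difference among the members other than Atp5o, 0.16 ± 0.08 (SE). It was named after its values were seen. It measured 9.89 to 10.06 in controls and 10.28, 9.85, 10.28, 10.02 and 10.25 on Dp5/Dp1 replicates 1 to 5. Ndufab1, that acyl carrier protein, was likewise named after its values were seen and had a difference of 0.08 ± 0.04 (SE). None of these was called.

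Ndufv3, an accessory subunit of the NADH-binding module, lies on chromosome 17 (31520115 to 31531326) in a region homologous to Hsa21 that Dp5/Dp1 mice do not duplicate. It measured 8.61 to 8.92 in controls and 8.78 to 8.99 in Dp5/Dp1, with overlapping groups and a difference of 0.11 ± 0.06 (SE, limma adjusted p = 0.832). Ndufa13, also known as GRIM-19, differed by -0.03 ± 0.05 (SE). The 6 core subunits measured, which carry the flavin and iron-sulphur clusters and the ubiquinone site (Ndufs1, Ndufs3, Ndufs7, Ndufs8, Ndufv1, Ndufv2), had a median difference of 0.02 and 4 of 6 were higher. The other 30, Ndufa4 and Ndufa4l2 included, had a median of 0.05 and 27 were higher. Both members at an unadjusted limma p under 0.05 were among these 30. Whether core and other subunits differ was not tested. Among the others, Ndufa1 and Ndufb6, both of the arm in the membrane, differed by 0.12 ± 0.07 (SE) each and were named after their values were seen. Ndufb6 reached 11.63 and 11.71 on Dp5/Dp1 replicates 3 and 5, above the highest control at 11.51, but measured 11.34 on replicate 2, within the control range. At the other end, Ndufa5, Ndufa11 and Ndufs8 differed by 0.0025 or less in size.

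Complex II, succinate dehydrogenase, had 3 of 4 members higher (median 0.03). With so few members this median moved with single arrays, to 0.009 without Dp5/Dp1 replicate 5, 0.01 without Dp5/Dp1 replicate 3 or control replicate 5, and 0.05 without Dp5/Dp1 replicate 2 or 4 or control replicate 1. Sdhc, a membrane anchor, differed by 0.08 ± 0.05 (SE), Sdhb, the iron-sulphur subunit, by 0.04 ± 0.05, and Sdhd, the other anchor, by 0.02 ± 0.05. Sdha, the flavoprotein that oxidises succinate, differed by -0.007 ± 0.03, with a 95% interval inside a ratio of 1.2. On Dp5/Dp1 replicate 5 Sdhc, Sdhb and Sdhd stood 0.17, 0.12 and 0.14 above their control means, whereas on replicates 2 and 4 they stood between -0.07 and -0.02.

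Complex III had 7 of 9 members higher (median 0.05, and 0.03 without Dp5/Dp1 replicate 5). Uqcrc1, a core protein facing the matrix, measured 11.14, 11.25, 11.21, 11.13 and 11.17 in controls and 11.30, 11.27, 11.26, 11.18 and 11.23 in Dp5/Dp1. Its highest arrays were Dp5/Dp1 replicates 1, 2 and 3, but replicates 4 and 5 overlapped the controls, and the difference was 0.07 ± 0.03 (SE, limma adjusted p = 0.832). Uqcr10, a small subunit, differed by 0.12 ± 0.07 (SE) and Uqcrfs1, the Rieske iron-sulphur protein, by 0.05 ± 0.04. Cyc1, which carries the haem that passes electrons to cytochrome c, differed by -0.001 ± 0.05. The small subunits Uqcrh, Uqcrq and Uqcrb differed by 0.05 ± 0.04, 0.05 ± 0.06 and 0.03 ± 0.04. Uqcrq stood at 10.45, 10.51 and 10.57 on Dp5/Dp1 replicates 1, 3 and 5 and at 10.19 on replicate 2, below every control (10.33 to 10.39), so that its Dp5/Dp1 SD was 0.15 against 0.03 in controls. Uqcr11, the lowest of the complex, differed by -0.03 ± 0.09.

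Complex IV, cytochrome c oxidase, had 12 of 17 members higher (median 0.02, and 0.03 to 0.04 without Dp5/Dp1 replicate 2 or 4 or control replicate 1). Apart from Atp5o, Cox6c was the only member whose groups did not overlap. It measured 13.02, 13.04, 13.05, 13.02 and 13.05 in controls and 13.09, 13.06, 13.07, 13.06 and 13.09 in Dp5/Dp1, a difference of 0.04 ± 0.02 (SE, limma adjusted p = 0.862). The gap between the groups was in the third decimal. Cox6b1 had the smallest spread over control arrays of any member (SD 0.009) and a difference of 0.02 ± 0.02 (SE). Cox5a and Cox5b, which have no isoform among the members and sit on the matrix side, differed by 0.06 ± 0.05 and 0.06 ± 0.04.

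Several subunits of complex IV come as tissue isoforms. Those used in most tissues, Cox4i1, Cox6a1, Cox7a2 and Cox8a, differed by 0.02 ± 0.07, -0.03 ± 0.06, -0.02 ± 0.04 and 0.01 ± 0.04 (SE). Of those best known from heart and skeletal muscle, Cox6a2 differed by 0.07 ± 0.04, Cox7a1 by -0.008 ± 0.06 and Cox8b by -0.13 ± 0.23. Cox4i2, known from lung, differed by 0.05 ± 0.04. The isoforms known from testis, Cox6b2, Cox7b2 and Cox8c, differed by 0.08 ± 0.05, 0.01 ± 0.05 and -0.01 ± 0.03. Their mean levels were 6.38, 5.01 and 6.24, each among the dimmest 40% of genes. Whether they exceed background signal was not tested. Cox7b, which has Cox7b2 as its testis counterpart, differed by 0.004 ± 0.04. Cox7a2l, described as a factor that joins complexes III and IV into supercomplexes, differed by 0.05 ± 0.05. Supercomplexes were not measured here. Ndufa4l2, the hypoxia-induced relative of Ndufa4 and counted in complex I, differed by -0.02 ± 0.05. No isoform was called.

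Cox8b had the largest spread over control arrays of any member (SD 0.51). It measured 7.57, 6.51, 6.35, 7.27 and 7.00 in controls and 6.64, 6.71, 6.84, 6.44 and 7.42 in Dp5/Dp1. It was highest on control replicates 1, 4 and 5 and Dp5/Dp1 replicate 5, all of which were high in choroid plexus markers, whose mean level there was 8.72, 8.56, 8.10 and 8.37. On Dp5/Dp1 replicate 3, also high at 8.12, Cox8b was the next highest. The difference was 0.02 with the choroid plexus and habenula marker means as covariates and 0.03 without control replicate 1. It was -0.13 in the fit of all arrays, and the part of choroid plexus in it was not otherwise tested.

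**Figure D4:**
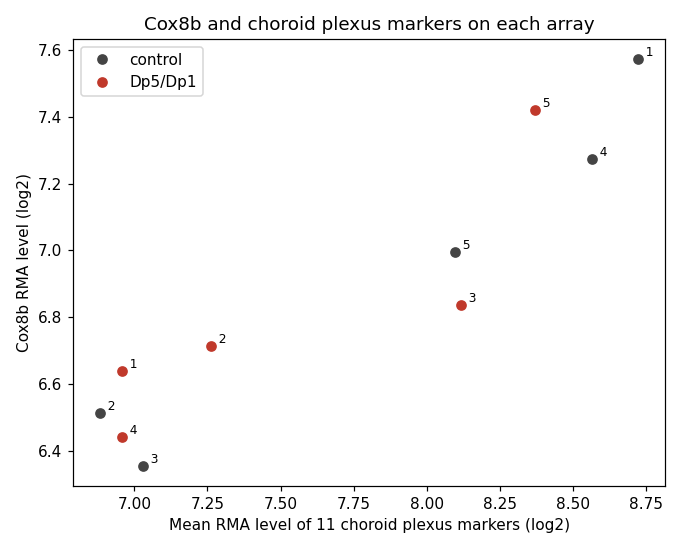
Cox8b RMA log2 level (vertical axis) against the mean RMA log2 level of 11 choroid plexus markers (horizontal axis) on each of the 10 arrays, with replicate numbers. The 5 arrays with a marker mean above 8 hold the 5 highest Cox8b levels, from 6.84 to 7.57.

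ATP synthase had 15 of its 16 members in 2 copies higher (median 0.04). The catalytic head (F1) gave 4 of 5 higher (median 0.03). Its epsilon subunit Atp5e differed by 0.14 ± 0.07 (SE, limma adjusted p = 0.832), whereas the catalytic beta subunit Atp5b differed by -0.03 ± 0.03 and was the only one lower. The alpha, gamma and delta subunits Atp5a1, Atp5c1 and Atp5d differed by 0.04 ± 0.04, 0.02 ± 0.04 and 0.03 ± 0.03. The peripheral stalk holds Atp5o together with Atp5j, Atp5h and Atp5pb, and the last 3 were all higher (median 0.06) without a call. Atp5j, coupling factor 6, lies on chromosome 16 (84827871 to 84835857) outside the Dp5Yah interval. It measured 12.00, 11.99, 12.11, 11.99 and 12.03 in controls and 12.09, 12.12, 12.11, 12.03 and 12.06 in Dp5/Dp1. The groups overlapped, and the difference was 0.06 ± 0.03 (SE, limma adjusted p = 0.841), beside the 0.47 of its trisomic stalk partner. Atp5h differed by 0.08 ± 0.05 (SE).

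The 3 genes for the membrane c ring, Atp5g1, Atp5g2 and Atp5g3, encode the same mature protein with different targeting peptides. Atp5g1 differed by 0.0004 ± 0.04, Atp5g2 by 0.03 ± 0.04 and Atp5g3 by 0.04 ± 0.05 (SE). The small membrane subunits (Atp5j2, Atp5k, Atp5l, Atp5md, Atp5mpl) were 5 of 5 higher (median 0.04), from 0.01 to 0.09, with none called.

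**Figure D5:**
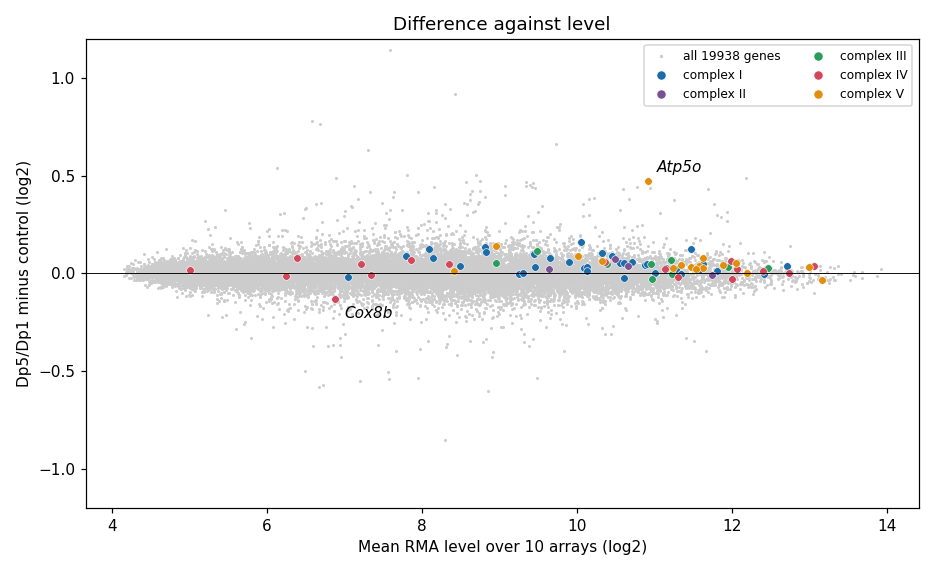
Dp5/Dp1 minus control difference (log2) against the mean RMA log2 level over 10 arrays, for all 19938 genes (grey) and the 83 members coloured by complex. Atp5o stands apart at 0.47, and the other members lie inside the cloud of all genes, most of them just above 0.

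The 2 mitochondrially encoded members of the pathway with a probe set of their own, ND3 of complex I and COX2 of complex IV, differed by 0.03 ± 0.03 each (SE, limma adjusted p = 0.904 and 0.920). Of the assembly factors, which build the complexes without staying in them, 45 of 51 were measured and 35 were higher (median 0.04). None was called. At an unadjusted p under 0.05, 4 were higher (8.89%) and 0 lower, against 3.39% and 2.67% of all genes. These were Cmc1 (0.11 ± 0.03, SE), Coa3 (0.09 ± 0.04) and Coa6 (0.08 ± 0.04) of complex IV and Lyrm7 (0.15 ± 0.05), which serves the insertion of the Rieske protein into complex III. Coa3, Coa6 and Uqcc1, a complex III factor whose groups did not overlap (0.07 ± 0.03), were named after their values were seen.

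Of 26 regulators and carriers measured, 14 were higher (median 0.005) and none was called. Tfb1m, which methylates mitochondrial ribosomal RNA, differed by 0.14 ± 0.05 (SE, limma adjusted p = 0.767), and Vdac2, a channel of the outer membrane, by 0.10 ± 0.05. Slc25a5, an ADP/ATP carrier named after its values were seen, had groups that did not overlap and differed by -0.04 ± 0.03. The factors best known to drive these genes, chosen by name, were Gabpa (-0.03 ± 0.07), Nrf1 (0.02 ± 0.03), Tfam (0.005 ± 0.06) and Ppargc1a (-0.02 ± 0.05), all with overlapping groups. Of 17 citric acid cycle genes, 13 were higher (median 0.01) and none was called. At an unadjusted limma p under 0.05, 2 were higher (11.8%, Suclg1 and Pdhx) and 0 lower, against 3.39% and 2.67% of all genes. Suclg1 of succinyl-CoA ligase differed by 0.11 ± 0.05 (SE) and Pdhx of pyruvate dehydrogenase by 0.08 ± 0.04.

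Where a member had several probe sets, as 17 members did, the probe sets mostly pointed in the same direction. For 13 of the 17 all of them were higher, for 1 all were lower and for 3 they were mixed. None of these 42 probe sets was called. Sizes could differ, as for Cox7a2l (0.05 and 0.13) and Ndufa11 (0.0025 and 0.04). Probe sets named for 1 gene read the same RNA, and some may bind processed pseudogenes. Their agreement is therefore not independent support.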

How the data were processed

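Total RNA of 10 hippocampi was hybridised by the authors to Mouse Gene 1.0 ST arrays. They normalized the arrays by RMA and deposited log2 expression values. RMA, limma and the mm10 build are named in the submitters' processing notes. The labels give 200 ng of starting RNA and the study's methods a smaller amount. RMA compresses differences of dim probe sets, and its quantile step sets arrays to nearly the same distribution (array medians 6.73 to 6.80), so levels are relative to the other genes of an array.

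Of 35556 probe sets, 21789 had 1 gene symbol, 1621 several and 12146 were unnamed here. The probe set with the highest mean stood for each of 19938 genes. Positions and promoters came from RefSeq (GRCm38.p6, the assembly of mm10). Probes that also bind processed pseudogenes were not screened for.

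Groups came from the condition label. Differences were tested with lmFit and eBayes of limma 3.58.1 (R 4.3.3), two-sided and without covariates, with tables in Python 3.11.15. FCROS was rewritten from its description (25 array pairs, 0.25 trimmed, tails of 0.025). Scripts were tested on simulated data. Members and lists were chosen with earlier results of these data known. Members were named by rule: Atp5o, Atp5j, Ndufv3, Ndufa13, any with p under 0.05 or groups that did not overlap, the 3 with the lowest p in each complex, those with the largest and smallest control spread, tissue isoforms and c-ring genes, and in other lists those called or the 2 with the lowest p. Nothing says that replicates share more than a number, and p-values measure the spread between mice. Alternatives are given in the closing section.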

Additional observations from a re-analysis of the deposited data

Results flagged for a closer look

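Atp5g3 on control replicate 1 stood apart from its group, at 11.68 against 11.51 to 11.53 on the other 4 control arrays. It was the only such array among 80 groups of 5 tested (the named members and the median deviations of the complexes, in each genotype), where chance alone would give about 1 in 20.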

How the results depend on the processing

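Atp5o was called in all 20 other limma fits, with differences from 0.44 to 0.50 and adjusted p from 0.00022 to 0.00756, and by FCROS. Leaving out 1 array in turn gave 0.44 to 0.50. No limma fit called any of the 82 other members (lowest adjusted p 0.219, without Dp5/Dp1 replicate 4), whereas FCROS passed 3. Their median difference kept its sign in every fit, from 0.02 to 0.05 when 1 array was left out. In fits with all 82 members 62 to 73 were higher. Without the dimmest 40% of genes it was 66 of 79. The count at an unadjusted p under 0.05, all higher, was 4 with array weights and 4 after renewed quantile normalization (4.88%, against 4.00% and 3.50% of all genes higher in those fits). It was 9 with the choroid plexus and the habenula marker means as covariates (10.98%, against 3.44%), 5 without Dp5/Dp1 replicates 2 and 5 (6.10%, against 3.59%), 11 with the replicate number as a block (13.4%, against 3.51%), and 1 to 14 when 1 array was left out (1.22% to 17.1%, against 2.27% to 4.55%). The deviations of same-numbered mice correlated between -0.35 and 0.29, and only replicate 2 correlated best with its own number. With so few mice these values showed no pairing by replicate number but cannot exclude it. The block changed no call among the members. Cox8b and some differences close to 0 changed sign, none of them called in any fit. With the marker covariates these were Ndufa13 (0.0096), Cox8b (0.021), Cox6a1 (0.019), Cox7a1 (0.014), Cox8c (0.0008), Cox7b (-0.012) and Atp5g1 (-0.0071). Cox7b was -0.0002 with array weights and -0.0059 without Dp5/Dp1 replicates 2 and 5. It was -0.0017 after centring on genes outside the duplicated intervals and the member list. Atp5g1 was -0.0012 with the mean of its probe sets and -0.0058 after that centring. Leaving out 1 array turned the sign of Atp5g1 (-0.021 to 0.019), Cox4i1 (-0.026 to 0.061), Cox6a1 (-0.073 to 0.0002), Cox7a1 (-0.038 to 0.051), Cox7b (-0.010 to 0.025), Cox7b2 (-0.014 to 0.046), Cox8a (-0.0074 to 0.032), Cox8b (-0.285 to 0.025), Cox8c (-0.027 to 0.010), Ndufa4l2 (-0.043 to 0.022) and Sdhd (-0.0071 to 0.048). The cause was not tested. The 5 arrays per group and a median SE of 0.04 limit what can be told from 0.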

Other observations

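Genes for mitochondrial ribosomal proteins outside the duplicated intervals, a list chosen after values were seen, were likewise mostly higher. Of 76, 64 were higher (median 0.05) and none was called, and an unadjusted p under 0.05 was reached by 10 in the higher direction (13.2%, against 3.39% of all genes) and by 0 in the lower. Their median deviation from the control mean was 0.08, 0.01, 0.07, 0.02 and 0.07 on Dp5/Dp1 replicates 1 to 5, and -0.02 to 0.06 on the controls, the highest being control replicate 3. Genes for cytosolic ribosomal proteins, also chosen after values were seen, were higher for 48 of 61 (median 0.02). Their median deviation was 0.01, -0.04, 0.08, -0.03 and 0.06 on Dp5/Dp1 replicates 1 to 5 and -0.08 to 0.03 on the controls, with the lowest value on control replicate 2, the array that also held the lowest level of the most respiratory chain members.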
